A study of Homo sapiens with 30 samples.

Results

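A set of 10 genes that mark the mesenchymal state of carcinoma cells were followed through ChIP-seq peak lists from MDA-MB-231, a long-established line of triple-negative breast cancer cells. The genes were taken by name, not by any measured value: *VIM*, *ZEB1*, *ZEB2*, *SNAI1*, *SNAI2*, *TWIST1*, *CDH2*, *FN1*, *AXL*, and *CD44*, 10 of the 20098 protein-coding genes annotated on the autosomes and X chromosome. Lists of peak summits were at hand for 18 of 30 libraries, in 9 groups of 2 libraries. SAP30, SIN3A, and SIN3B were precipitated from parental cells, and RNA polymerase II (Pol II), trimethylated lysine 4 of histone H3 (H3K4me3), and acetylated lysine 9 of histone H3 (H3K9Ac) from both parental and SAP30-KO1 cells. The other 12 libraries, of input DNA or total histone H3, were not analysed here. Parental cells carried no edit, and SAP30-KO1 cells were edited at *SAP30* with CRISPR/Cas9 and 1 guide, selected with puromycin, and pooled from several knockout cells. Both grew in the same medium. The edited cells therefore differed from the parental cells by guide delivery and selection as well as by genotype, and these cannot be told apart here. No label says that the 2 libraries of a group came from separate cultures, so a p-value measures only the spread between these libraries, which may be technical.

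Epithelial cells that pass through epithelial-mesenchymal transition lose cell-cell junctions and gain motility. The zinc-finger proteins ZEB1, ZEB2, SNAI1, and SNAI2 and the basic helix-loop-helix protein TWIST1 drive this program and bind E-boxes, through which the zinc-finger factors repress epithelial genes such as E-cadherin. Vimentin, N-cadherin (*CDH2*), fibronectin (*FN1*), the receptor tyrosine kinase AXL, and the hyaluronan receptor CD44 are its structural and surface products. SAP30 is a subunit of the corepressor complex built on the scaffolds SIN3A and SIN3B, which carries histone deacetylases, whereas H3K4me3 and H3K9Ac mark active promoters, and H3K9Ac also active enhancers.

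Each list held 10861 to 54622 summits, 1 for every peak. Summits were ranked within their own list by the peak score, and the rank is given as a percent from the top, so that a low percent is a strong peak. Read depth is unknown, so the scores themselves were not compared between libraries. A promoter summit is one no more than 1000 bp from any start site annotated for the gene, and the strongest one represented the gene in each list. Many scores were tied and then shared 1 mean rank. The lists cannot show loss of SAP30 protein, because SAP30 was precipitated only from parental cells. The *SAP30* promoter itself ranked at 10.2% and 5.41% for Pol II in the parental libraries and at 3.75% and 23.9% in SAP30-KO1, which overlap. Its H3K9Ac ranks, 11.7% and 13.7% against 9.24% and 12.3%, overlapped as well. Its H3K4me3 ranks were weaker in both SAP30-KO1 libraries, at 11.3% and 22.0% against 23.8% and 30.3%, as at 28.1% of genes tested. Epithelial and luminal markers agreed in part with the mesenchymal label. Of 19 such genes, 6 carried a Pol II promoter summit in both parental libraries (*EPCAM*, *KRT8*, *KRT18*, *KRT19*, *CLDN4*, and *CLDN7*), against 57.7% of protein-coding genes. The E-cadherin gene *CDH1* and the luminal factors *ESR1*, *GATA3*, and *FOXA1* had no Pol II promoter summit. However, *CDH1*, *ESR1*, and *FOXA1* had an H3K4me3 promoter summit in both parental libraries. *KRT8* and *KRT18* shared 1 summit.

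SAP30 sat at the promoter of every one of these genes that carried Pol II. To show where it sat, the DNA around the strongest SAP30 summit is given for *ZEB1*, *AXL*, and *CD44*, 3 genes in which this stretch lay outside coding exons and UTRs of the gene. Each stretch runs 60 bases to either side of the summit on the plus strand of GRCh37 (hg19). Capitals mark the letters GGGCGG (the GC box) or CACCTG (the E-box that SNAI and ZEB factors can bind), on either strand.
ZEB1, chr10:31608390-31608510, intron, summit 299 bp downstream of the nearest start site: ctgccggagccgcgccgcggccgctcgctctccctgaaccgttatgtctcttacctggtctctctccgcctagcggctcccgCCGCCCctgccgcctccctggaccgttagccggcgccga
AXL, chr19:41732153-41732273, intron, summit 447 bp before an internal start site: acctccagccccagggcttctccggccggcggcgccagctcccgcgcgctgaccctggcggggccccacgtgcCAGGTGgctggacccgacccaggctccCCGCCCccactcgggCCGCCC
CD44, chr11:35161150-35161270, intron, summit 359 bp downstream of the nearest start site: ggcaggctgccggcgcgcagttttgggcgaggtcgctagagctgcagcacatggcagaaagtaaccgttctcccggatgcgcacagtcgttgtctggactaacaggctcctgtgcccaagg
No capitals overlap between motifs. The stretches were rich in G and C, from 62.0% in *CD44* to 81.0% in *AXL*.

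Sequence was read for 7 of the genes with a SAP30 promoter summit, all but *SNAI1*, and 4 of the 7 stretches held GGGCGG and 2 held CACCTG (*SNAI2* and *AXL*). Of 11352 such stretches around the strongest SAP30 promoter summit of all protein-coding genes, 41.0% held GGGCGG and 10.2% held CACCTG. None of the 7 held the AP-1 motif TGANTCA, the CCAAT box, the TATA box TATAAA, or the TEAD motif GGAATG, on either strand. In a promoter window of 250 bases before to 50 after the canonical start site, GGGCGG was found in 8 of 9 genes (all but *ZEB2*, with *SNAI1* left out) and in 61.5% of 19819 promoters. CACCTG was found in 2 (*ZEB1* and *AXL*; 20.4% of promoters) and CCAAT in 4 (36.0%), *TWIST1* alone held TATAAA (9.65%), and none held TGANTCA (5.41%) or GGAATG (11.3%). Letter matches describe these windows only.

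Among the 10 genes, 8 carried SAP30, Pol II, and both histone marks at the promoter, and *TWIST1* and *CDH2* carried none of them. A SAP30 promoter summit was present in both libraries at 8 of 10 genes, against 61.2% of protein-coding genes. Pol II (57.7% of genes) and H3K4me3 (63.8%) were present in both parental libraries at the same 8, and H3K9Ac (61.4%) at 7, all but *SNAI2*, which lacked it in 1 library. SIN3B was present in both libraries at 6 of 10 (51.7% of genes): *VIM*, *ZEB1*, *SNAI2*, *FN1*, *AXL*, and *CD44*. SIN3A was present in both at 4 of 10 (31.5% of genes): *VIM*, *FN1*, *AXL*, and *CD44*. Of all genes with Pol II in both parental libraries, 97.5% had SAP30, 87.5% SIN3B, and 53.8% SIN3A in both libraries, and the corresponding counts here were 8, 6, and 4 of 8. These shares are near the background of Pol II-bound genes. In all, 132 of the 180 gene-library pairs held a promoter summit, and *VIM*, *FN1*, *AXL*, and *CD44* held one in all 18 lists.

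**Figure D1:**
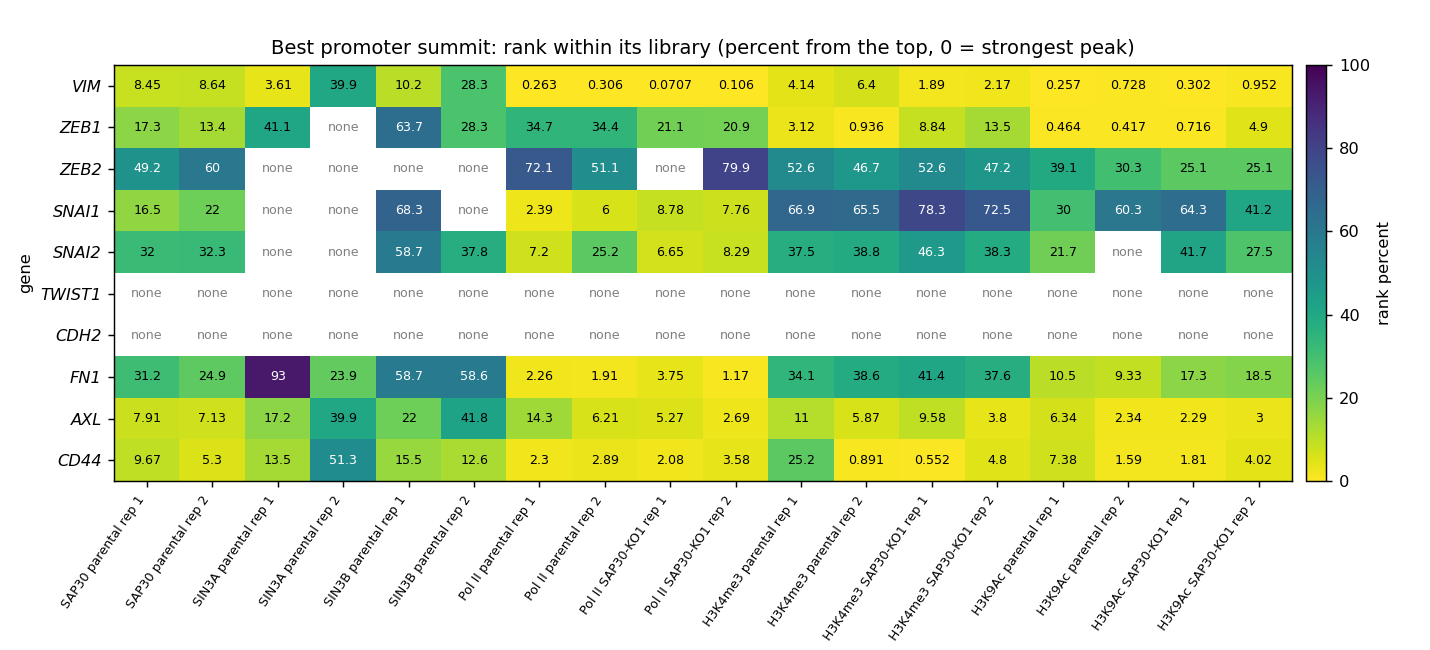
Rank of the strongest promoter summit of each gene (rows) in each of the 18 libraries (columns; rep, replicate), in percent from the top of the list; 0 is the strongest peak and "none" means no summit within 1000 bp of a start site. *VIM*, *FN1*, *AXL*, and *CD44* have a value in every library, *TWIST1* and *CDH2* in none.

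*VIM*, which encodes the intermediate filament protein vimentin, had one of the strongest Pol II peaks in these cells. On chr10:17270240-17279592, its Pol II promoter summit ranked at 0.263% and 0.306% in the parental libraries (55th and 71st strongest) and at 0.0707% and 0.106% in SAP30-KO1 (17th and 24th). The median gene with a promoter summit ranked at 24.8% to 27.2% in these 4 libraries. The H3K9Ac summit ranked at 0.257% and 0.728% in parental and 0.302% and 0.952% in SAP30-KO1 cells. SAP30 ranked at 8.45% and 8.64%, SIN3B at 10.2% and 28.3%, and SIN3A at 3.61% and 39.9%. The SIN3A replicates thus differed widely at the same promoter. The parental and SAP30-KO1 Pol II summits lay 37 to 54 bp downstream of the internal start site at position 17271277, in a 5′ UTR, rather than at the canonical start 1037 bp upstream. Among the start sites used here, the antisense RNA gene *VIM-AS1* starts 2380 bp upstream of this one. Other annotated *VIM-AS1* transcripts, outside the basic set used here, start 12903 bp upstream and 142 and 740 bp downstream of it, and the lists carry no strand.

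The EMT transcription factors differed from each other in which signal was strong. *ZEB1* (chr10:31607424-31818742) ranked among the strongest peaks for H3K9Ac in parental cells, at 0.464% and 0.417%, and for H3K4me3, at 3.12% and 0.936%, but only at 34.7% and 34.4% for Pol II. *SNAI1* (chr20:48599517-48605423) showed the opposite order, with Pol II at 2.39% and 6.0%, H3K4me3 at 66.9% and 65.5%, and H3K9Ac at 30.0% and 60.3%. *SNAI2* (chr8:49830157-49834299) had Pol II at 7.20% and 25.2% and H3K4me3 at 37.5% and 38.8%. *ZEB2* (chr2:145121931-145278624) was the weakest of the 4 for Pol II, at 72.1% and 51.1%, and its strongest promoter summits lay 2632 to 3374 bp inside the canonical start, near internal start sites. Promoter summits at *ZEB1* and most of those at *ZEB2* lie close to the start sites of *ZEB1-AS1* and *ZEB2-AS1* and cannot be assigned to 1 of the pair.

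SAP30 occupied the promoters of the 4 factors with little SIN3A. SAP30 ranked at 17.3% and 13.4% at *ZEB1*, 16.5% and 22.0% at *SNAI1*, 32.0% and 32.3% at *SNAI2*, and 49.2% and 60.0% at *ZEB2*, against a median of 17.1% and 17.6% over all genes with a SAP30 promoter summit. SIN3A had a promoter summit in 1 library at *ZEB1*, at 41.1%, and in neither at the other 3. SIN3B had summits in both libraries at *ZEB1*, at 63.7% and 28.3%, and at *SNAI2*, at 58.7% and 37.8%, in 1 library at *SNAI1*, at 68.3%, and in neither at *ZEB2*. The SIN3A lists were the shortest, with 11115 and 10861 summits against 35001 and 35007 for SAP30, so absence from them is not absence of the protein.

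*TWIST1* (chr7:19060614-19157259) had no summit of SAP30, SIN3A, SIN3B, Pol II, or H3K4me3 in the gene or within 50 kb in any library. The nearest SAP30 summits were 591331 and 591325 bp from its start site, and only weak H3K9Ac summits, ranked at 64.7% at best, fell within 50 kb of the gene. *CDH2* (chr18:25512843-25757910) likewise had no Pol II summit within 50 kb, the nearest lying between 783528 and 1379616 bp from a start site. An H3K4me3 and H3K9Ac site at chr18:25501843-25502512, present in all 8 libraries of these marks, lay beyond the end of *CDH2* at the start of another gene, ENSG00000227279. Neither promoter had a summit of any of the 6 targets. Their 300-bp promoter windows, with 19 CpG dinucleotides in *TWIST1* and 23 in *CDH2*, were close to the median promoter, which had 23.

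The surface and matrix genes carried strong Pol II. *FN1* (chr2:216225163-216300796) ranked at 2.26% and 1.91% for Pol II, *CD44* (chr11:35160429-35253949) at 2.3% and 2.89%, and *AXL* (chr19:41725128-41767671) at 14.3% and 6.21% in parental cells. SAP30 was strong at *AXL*, at 7.91% and 7.13%, and at *CD44*, at 9.67% and 5.30%, and nearer the lower ranks at *FN1*, at 31.2% and 24.9%. SIN3A and SIN3B were both detected at these 3 genes, with wide replicate spread for SIN3A, at 93.0% and 23.9% for *FN1*, 17.2% and 39.9% for *AXL*, and 13.5% and 51.3% for *CD44*. SIN3B ranked at 58.7% and 58.6%, 22.0% and 41.8%, and 15.5% and 12.6% for *FN1*, *AXL*, and *CD44*. The promoters of *FN1* and *CD44* are shared with the divergent RNA genes *FN1-DT* and *CD44-DT*.

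At *AXL* the strongest SAP30 and the strongest Pol II summits lay at different start sites, although both proteins had a summit at each. The strongest SAP30 summits were 7099 and 7085 bp inside the gene, 433 and 447 bp before an internal start site at position 41732660. A second SAP30 summit in each library lay 25 and 169 bp from a start site near the canonical one, at lower ranks of 13.3% and 19.3%. The strongest SIN3A summit was 7141 bp inside in replicate 1 but 1 bp from the canonical start in replicate 2, and the strongest SIN3B summits were 780 bp after and 105 bp before the canonical start. Near the internal start, Pol II ranked at 67.8% and 76.1% in the parental libraries. The strongest Pol II summits were 13 and 17 bp before the canonical start in parental cells and 34 and 40 bp after it in SAP30-KO1. The strongest of the 3 H3K4me3 promoter summits in each library lay at the canonical start, 164 to 202 bp downstream. At the other 7 genes the strongest SAP30 and Pol II summits lay at the same promoter. Across the 8 genes, Pol II summits lay a median 37.0 bp from the nearest start site in each parental library, and SAP30 summits 182.5 and 249.0 bp. Over all genes, the medians were 59.0 and 57.0 bp for Pol II and 119.0 and 116.0 bp for SAP30. Because each peak has 1 summit, a broad peak can shift its summit without a change in its extent.

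**Figure D2:**
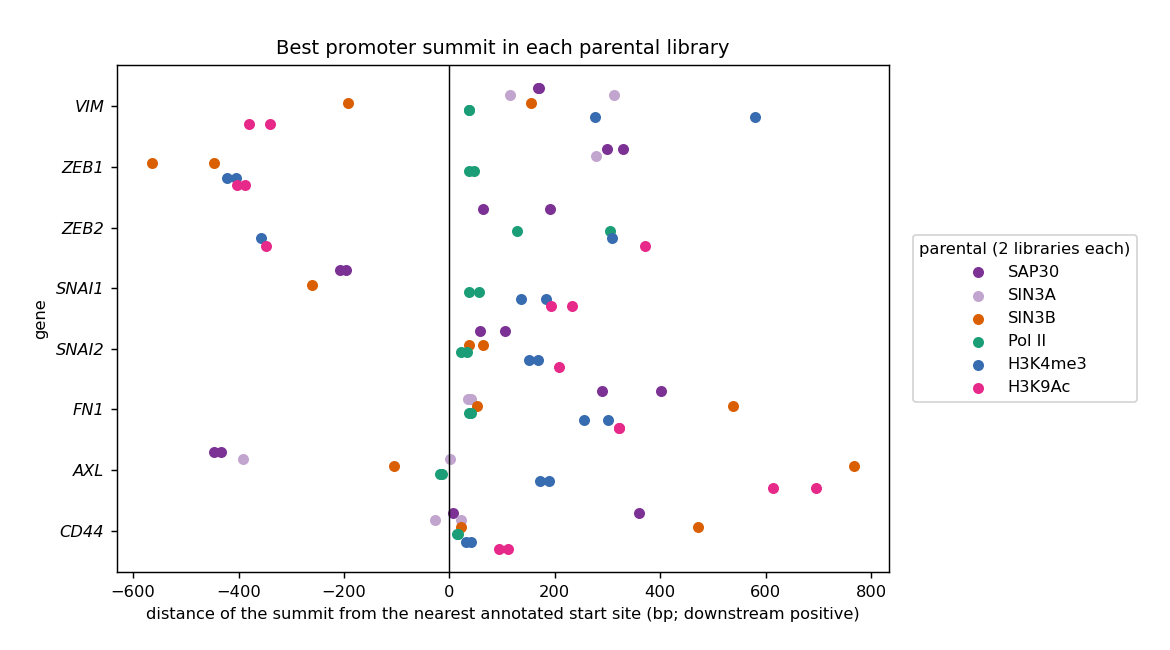
Distance in bp (x axis; downstream positive) of the strongest promoter summit from the nearest annotated start site of each gene (y axis), 1 point for each parental library with a summit. Pol II points cluster within 56 bp of a start site except at *ZEB2*, whereas SAP30 points reach 447 bp.

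The promoters of these genes were compared between SAP30-KO1 and parental cells for Pol II, H3K4me3, and H3K9Ac, which asks whether occupancy at mesenchymal genes moved with the loss of SAP30. Ranks were turned into normal scores, on which a higher score is a stronger peak, and fitted with limma over all genes with a promoter summit in all 4 libraries, with Benjamini-Hochberg adjustment over all genes tested. None of the 10 genes lost or gained a promoter peak, and none passed the test for a change in rank. For Pol II, 0 of 7 genes tested passed an adjusted p of 0.05 in limma (0% of 10706 genes, with 828 at an unadjusted p under 0.05, none of them among the 7). For H3K4me3, 0 of 8 passed (0% of 12531 genes, 991 unadjusted, 1 of them *ZEB1*). For H3K9Ac, 0 of 7 passed (0.0166% of 12048 genes, 968 unadjusted, none of the 7). The 2 genes that passed for H3K9Ac were *ARID1B* and *STOM*, both stronger in SAP30-KO1 (differences in normal score of 2.02 and 2.25, limma adjusted p = 0.0473 for each) and named after their values were seen. The genes left out of a fit were *TWIST1* and *CDH2* throughout, *ZEB2* for Pol II, and *SNAI2* for H3K9Ac.

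Loss of a promoter peak, meaning a summit in both parental libraries and neither SAP30-KO1 library, occurred at 0 of 8 genes for Pol II (2.33% of genes), 0 of 8 for H3K4me3 (1.43%), and 0 of 7 for H3K9Ac (0.689%). For Pol II, both SAP30-KO1 ranks were weaker than both parental ranks at 1 gene, *SNAI1* (24.2% of genes tested), and stronger at 3, *VIM*, *ZEB1*, and *AXL* (15.4%). For H3K4me3, they were weaker at 2, *ZEB1* and *SNAI1* (28.1%), and stronger at 1, *VIM* (11.5%). For H3K9Ac, they were weaker at 2, *ZEB1* and *FN1* (22.1%), and stronger at 1, *ZEB2* (16.4%). The median difference in normal score, SAP30-KO1 minus parental, was 0.37 for Pol II over the 7 genes tested, -0.04 over the 8 with H3K4me3, and -0.08 over the 7 with H3K9Ac, beside -0.07, -0.08, and -0.02 over all genes tested.

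*ZEB1*, a repressor of E-cadherin, was the one gene with non-overlapping ranks in all 3 marks, and in opposite directions. Its H3K4me3 summit ranked at 3.12% and 0.936% in parental cells and 8.84% and 13.5% in SAP30-KO1, a difference in normal score of -0.88 (SE 0.24, 95% interval -1.52 to -0.24; limma adjusted p = 0.58, unadjusted p = 0.0186). Its H3K9Ac summit ranked at 0.464% and 0.417% against 0.716% and 4.90%, a difference of -0.57 (SE 0.26; limma adjusted p = 0.63), which was -0.171 without SAP30-KO1 replicate 2 and -0.965 without SAP30-KO1 replicate 1. Its Pol II summit, in contrast, ranked at 34.7% and 34.4% against 21.1% and 20.9%, a difference of 0.41 (SE 0.25; limma adjusted p = 0.713). Both histone marks were thus lower in rank and Pol II higher in both SAP30-KO1 libraries, with none past the threshold. The strongest summits were not all at the same position. For Pol II it lay 225 bp before a start site in SAP30-KO1 replicate 2, and 37 to 46 bp after one in the other libraries. For H3K9Ac it lay 370 bp after a start site in SAP30-KO1 replicate 1, and 388 to 407 bp before one in the other libraries. Whether the marks moved differently from Pol II at *ZEB1* was not tested.

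**Figure D3:**
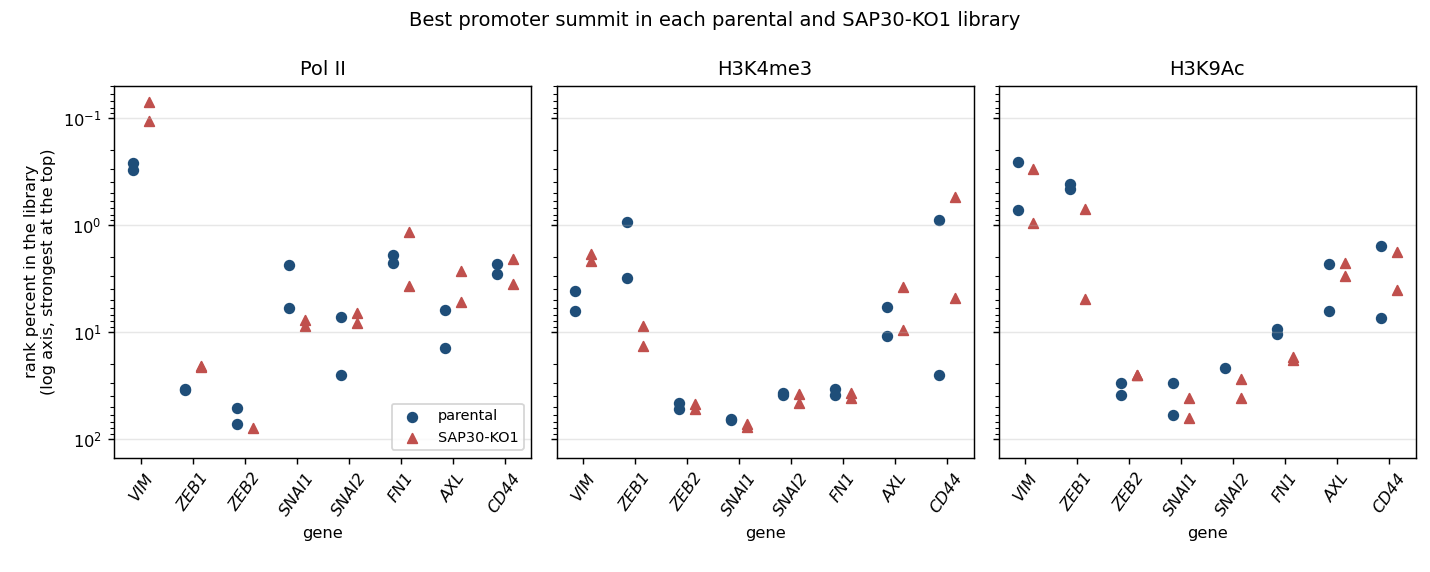
Rank percent of the strongest promoter summit (y axis, log scale, strongest at the top) for the 8 genes with a promoter summit, in the 2 parental (circles) and 2 SAP30-KO1 (triangles) libraries of each mark. *ZEB1* triangles lie below the circles for H3K4me3 and H3K9Ac and above them for Pol II, and *VIM* triangles lie above the circles for Pol II and H3K4me3.

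*VIM* ranked higher in both SAP30-KO1 libraries for Pol II, by 0.37 in normal score (SE 0.26; limma adjusted p = 0.737), and for H3K4me3, at 4.14% and 6.40% in parental against 1.89% and 2.17% in SAP30-KO1 cells, a difference of 0.42 (SE 0.16; limma adjusted p = 0.642). With a 500-bp promoter window, the H3K4me3 difference at *VIM* was 0.144. The H3K9Ac ranks of *VIM* overlapped. For *AXL*, Pol II ranked at 14.3% and 6.21% against 5.27% and 2.69%, a difference of 0.47 (SE 0.29; limma adjusted p = 0.713), while H3K4me3 and H3K9Ac overlapped. This *AXL* difference ranged from 0.236 without parental replicate 1 to 0.708 without parental replicate 2, and was 0.318 without SAP30-KO1 replicate 2. *SNAI1* was lower in both SAP30-KO1 libraries for Pol II, at 2.39% and 6.0% against 8.78% and 7.76%, a difference of -0.38 (SE 0.28; limma adjusted p = 0.743), and for H3K4me3, at 66.9% and 65.5% against 78.3% and 72.5%, a difference of -0.27 (SE 0.15; limma adjusted p = 0.745). For *SNAI1*, the Pol II difference ranged from -0.166 without parental replicate 1 to -0.591 without parental replicate 2, and the H3K4me3 difference was -0.179 without SAP30-KO1 replicate 1. The 95% intervals of these 5 differences include 0.

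*FN1* H3K9Ac ranked at 10.5% and 9.33% in parental and 17.3% and 18.5% in SAP30-KO1 cells, a difference of -0.37 (SE 0.17, 95% interval -0.76 to 0.02; limma adjusted p = 0.648). Its Pol II ranks, 2.26% and 1.91% against 3.75% and 1.17%, overlapped, as did its H3K4me3 ranks. *CD44* overlapped in all 3 marks. One parental H3K4me3 library set its spread, with ranks of 25.2% and 0.891% in parental and 0.552% and 4.80% in SAP30-KO1 cells, and the 95% interval of the difference ran from -1.27 to 2.43. Without that library, parental replicate 1, the difference was -0.267, and it was 0.145 without SAP30-KO1 replicate 1, 1.022 without SAP30-KO1 replicate 2, and 1.434 without parental replicate 2. *ZEB2* H3K9Ac ranked at 39.1% and 30.3% in parental and at 25.1% in both SAP30-KO1 libraries, a difference of 0.28 (SE 0.18; limma adjusted p = 0.74). This difference was 0.157 without parental replicate 1 and 0.024 with a 500-bp promoter window. The *ZEB2* Pol II summit was absent from 1 SAP30-KO1 library and ranked at 79.9% in the other. *SNAI2* Pol II overlapped, at 7.20% and 25.2% against 6.65% and 8.29%.

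**Figure D4:**
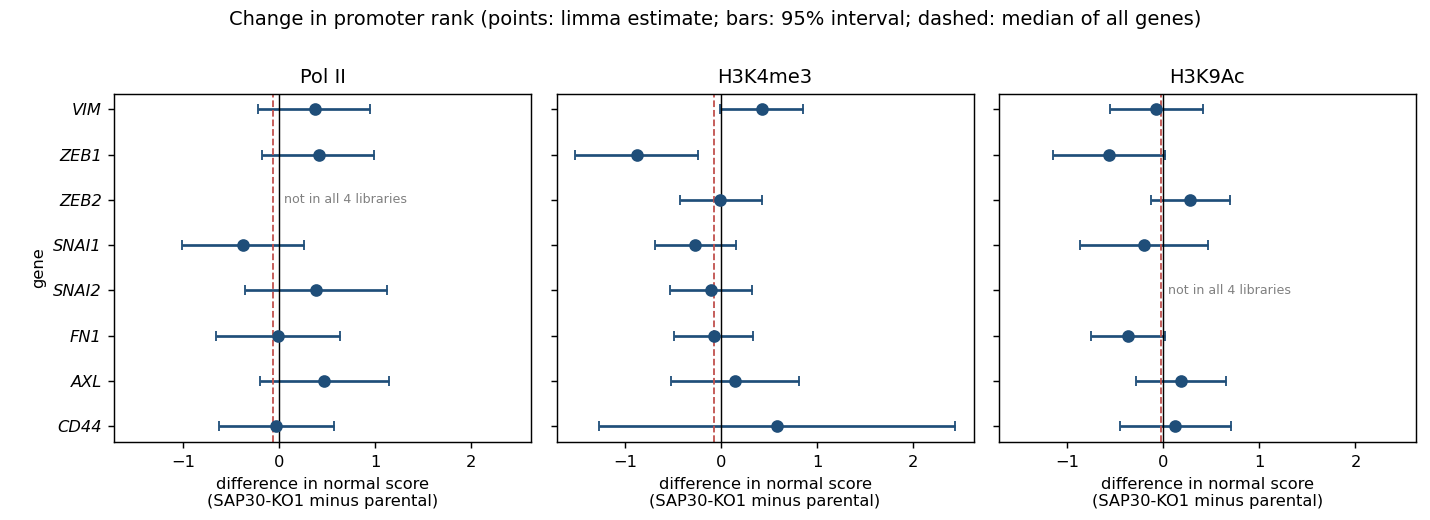
Difference in normal score of the promoter rank, SAP30-KO1 minus parental (x axis; above 0 is a stronger rank in SAP30-KO1), for each gene (y axis) and mark, from limma with 2 against 2 libraries; bars are 95% intervals, the solid line is 0, and the dashed line is the median of all genes tested. The interval excludes 0 only for *ZEB1* H3K4me3, from -1.52 to -0.24, which did not pass after adjustment.

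Inside the genes, *VIM* held more Pol II summits in SAP30-KO1 cells. The counts were 4 and 5 in the parental libraries and 9 and 11 in SAP30-KO1, and these do not overlap. It was 1 of 8 genes with more Pol II summits in both SAP30-KO1 libraries (9.38% of 12670 genes) and none of the 8 had fewer (6.73%). The 2 SAP30-KO1 libraries together held 11 more summits inside *VIM* than the 2 parental libraries, a difference reached by 0.0474% of genes with a Pol II summit inside. *VIM* was picked for this comparison after its counts were seen. The genes were not matched for the number of summits they held, so this share is not a p-value. Upstream of the gene, and so outside the counts, parental replicate 1 and SAP30-KO1 replicate 2 each had a Pol II summit within 1000 bp of the canonical start. Both SAP30-KO1 libraries had a summit in the 5′ UTR near the canonical start, at positions 17270445 and 17270480 with ranks of 17.6% and 18.9%, where no parental library had one. Apart from these and the promoter peak, the SAP30-KO1 summits were mostly in introns and ranked between 30.7% and 97.7%. Because neighbouring peaks can be merged into 1 with 1 summit, a count of summits is not a measure of signal, and merging was not tested.

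H3K9Ac summits inside *CD44* numbered 11 and 10 in parental and 7 and 8 in SAP30-KO1 cells, and those inside *AXL* 5 and 5 against 2 and 3. These were the 2 genes of 10 with fewer H3K9Ac summits in both SAP30-KO1 libraries (8.04% of 14034 genes), and *SNAI2*, with 1 and 1 against 2 and 2, was the 1 gene with more (4.68%). For H3K4me3, 0 of 8 genes had fewer (5.29% of genes) and 0 had more (2.37%). The H3K9Ac lists were also shorter in SAP30-KO1, with 50862 and 50807 summits against 54622 and 53651. In *CD44*, the intronic site at chr11:35183974-35185966 had H3K9Ac in both parental and neither SAP30-KO1 library, whereas a stronger intronic site at chr11:35187277-35188864, with SAP30 and SIN3B in both libraries, kept H3K9Ac in all 4. The opposite case was found at 2 weaker sites, with H3K9Ac in both SAP30-KO1 and neither parental library, the intronic site chr11:35236090-35236880 at the start of *CD44-AS1* and chr11:35289496-35289501 beyond the end of *CD44*.

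**Figure D5:**
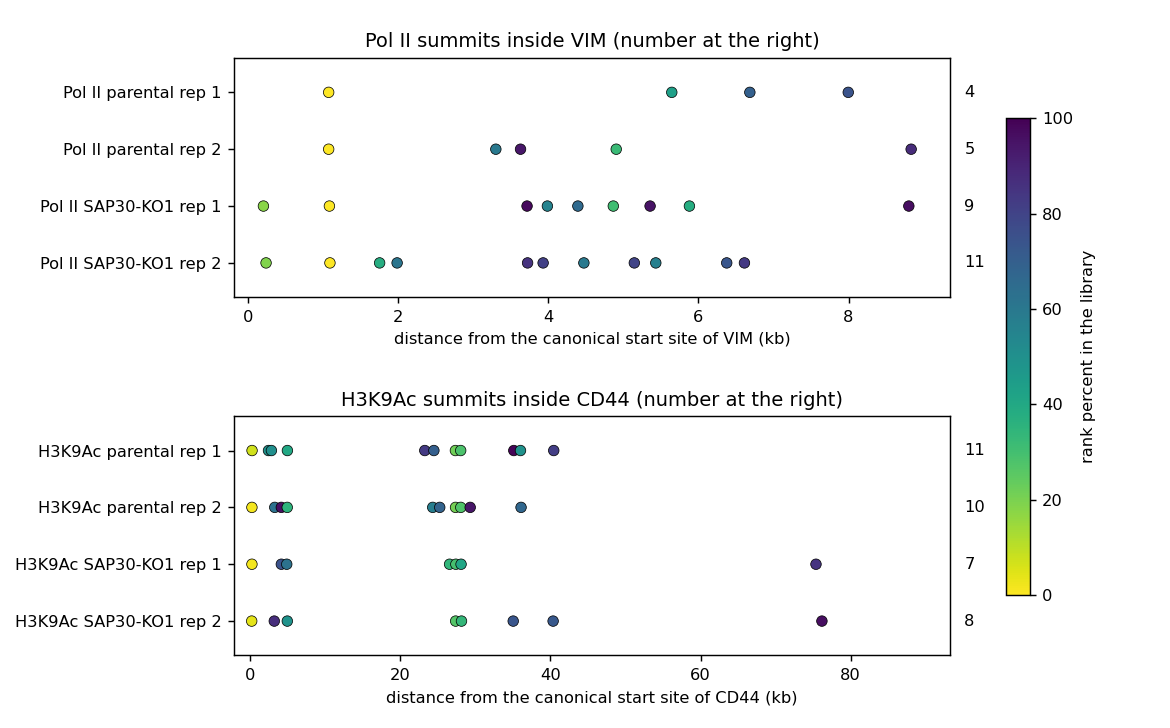
Summits of Pol II inside *VIM* (upper panel) and of H3K9Ac inside *CD44* (lower panel) along the gene (x axis, kb from the canonical start site) in each of the 4 libraries (rows; rep, replicate), colored by rank percent, with the number of summits at the right. *VIM* has 4 and 5 Pol II summits in parental and 9 and 11 in SAP30-KO1 libraries, and *CD44* has 11 and 10 H3K9Ac summits in parental and 7 and 8 in SAP30-KO1 libraries.

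Counted over the 10 genes and 50 kb on either side, Pol II summits numbered 31 and 40 in parental and 42 and 51 in SAP30-KO1 cells, a ratio of 1.31 (two-sided exact permutation p = 0.33). H3K4me3 summits numbered 42 and 30 against 35 and 38, a ratio of 1.01, and H3K9Ac summits 70 and 68 against 68 and 72, also 1.01 (both exact permutation p = 1.0). With 2 libraries against 2, the exact test cannot go below 0.33.

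Summits of the 18 lists within 1000 bp of each other formed 61 sites in these windows, 8 of them the promoters of the genes, 9 at the start sites of other genes, and 44 distal. Of the 44 distal sites, 11 had SAP30 in both libraries. Of these 11, 7 also had H3K9Ac in both parental libraries, 2 had SIN3B in both, and 1 had SIN3A in both. The 2 with SIN3B were in the *CD44* locus, the intronic site above and chr11:35132219-35133260 upstream. Of the 16 distal sites with H3K9Ac in both parental libraries, 13 had it in both SAP30-KO1 libraries. The SIN3A site was at chr20:48644437-48644473, 44938 bp from the *SNAI1* start, where SAP30 ranked as high as 3.52% and no Pol II, H3K4me3, or H3K9Ac summit was listed. A site upstream of *VIM*, at chr10:17254097-17259611, had SAP30 in both libraries and Pol II, H3K4me3, and H3K9Ac in all 4 libraries of each. A *VIM-AS1* transcript outside the basic set starts inside this site, at position 17258374. The site is therefore distal only by the start sites used here.

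A list of 34 other genes of the mesenchymal program was read in the same way. Pol II promoter summits were present in both parental libraries at 24 (57.7% of all genes), H3K4me3 at 26 (63.8%), and H3K9Ac at 25 of them (61.4%). None of the 20, 25, and 24 tested passed the threshold in limma, with 4, 0, and 3 at an unadjusted p under 0.05. Over all genes these were 828 of 10706, 991 of 12531, and 968 of 12048. The median difference in normal score was 0.06 (Pol II), -0.10 (H3K4me3), and -0.02 (H3K9Ac). Promoter peaks were lost at 2 for Pol II (*TAGLN* and *TGFBI*; 2.33% of genes), at 1 for H3K4me3 (*TAGLN*; 1.43%), and at 0 for H3K9Ac (0.689%), and these names were picked after their values were seen. Of the 19 epithelial and luminal markers, 13 had H3K4me3 in both parental libraries and 3 lost it in SAP30-KO1 (*CDH1*, *CLDN3*, and *ST14*; 1.43% of genes), and of 7 with H3K9Ac, 1 lost it (*ST14*; 0.689%). The lost H3K4me3 peaks were weak in parental cells, at 89.9% and 67.0% (*CDH1*), 64.5% and 65.1% (*CLDN3*), and 74.0% and 70.7% (*ST14*). The median gene ranked at 24.2% and 26.1%. H3K9Ac at *ST14* ranked at 80.0% and 69.0%. The shares of all genes were not matched for rank. None of the 5 (Pol II), 10 (H3K4me3), and 6 (H3K9Ac) tested passed in limma, with 0, 1, and 2 at an unadjusted p under 0.05. The 6 for H3K9Ac gave 5 distinct values, since *KRT8* and *KRT18* share a summit, and all 5 were below 0 with a median of -0.33, beside 54.1% of genes below 0 and a median of -0.02 over all genes tested. For Pol II, 2 of 4 distinct values were below 0 (56.7% of genes), with a median of 0.05. For H3K4me3, 6 of 9 were below 0 (63.1% of genes), with a median of -0.18.

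For the 4 genes with a summit in all 18 lists, the gene with the most similar ranks was sought among 5750 genes with summits in all lists, as the smallest mean absolute difference in rank percent. *VIM* was nearest to *HNRNPAB*, at 2.57 percentage points, *AXL* to *EZH2*, at 3.79, *CD44* to *NAV2*, at 3.61, and *FN1* to *MKNK2*, at 6.35. The next gene was 3.29, 3.86, 3.66, and 6.85 points away, and the median gene 15.1, 12.9, 13.9, and 21.7. For *AXL* and *CD44* the first and second gene were therefore close to equally near.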

How the data were processed

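ChIP-seq peak summits were analysed from 18 libraries, 2 for each of 9 antibody and genotype groups. Per the labels, reads were checked with FastQC 0.11.2, aligned to hg19 with Bowtie2 2.3.3.1, processed with Picard and called with MACS2 2.1.0. The labels name inputs for SAP30 and SIN3A, for SIN3B, and for Pol II, and none for the histone marks. Which control each list was called against, and the caller's options, are not given in the sources used here. The labels give a fixation of 10 minutes. The deposited value of each 1-bp summit is a −log10 q-value, made by the authors separately for each library, with none below 1.3. It grows with depth and enrichment, which are unknown here, so ranks within a list were used. Start sites came from GENCODE release 44 mapped to GRCh37 (basic transcripts). Normal scores of the ranks were fitted with limma 3.58.1 (R 4.3.3; 2 against 2 libraries, no block), a script that was also tested on simulated data. Sequences were read from GRCh37 with pysam 0.24.0. The sequence at *SNAI1* is not reported here. All 10 genes are named. Other mesenchymal genes were to be named if past the threshold, and none was past it. *TAGLN* and *TGFBI* are named outside that rule, for lost promoter peaks. The genes, lists, and tests were chosen with earlier results of these data known. Backgrounds for summits inside genes were added after seeing the data.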

Additional observations from a re-analysis of the deposited data

How the results depend on the processing

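The 22 gene-by-mark differences were refitted in 14 other ways each, which gave 308 values. None passed an adjusted p of 0.05 in limma, and 12 of the 22 differences kept their sign throughout. The sign turned in 20 values, and sizes moved as well. With a 500-bp window, the H3K9Ac difference went from 0.182 to 1.01 at *AXL* and from 0.276 to 0.024 at *ZEB2*. The H3K4me3 difference at *SNAI1* went from -0.271 to -0.051 when ranked among promoter summits. Without 1 library, the difference in normal score ran from -0.257 to 0.228 (*FN1*), -0.145 to 0.091 (*CD44*), and -0.017 to 0.775 (*SNAI2*) with Pol II, from -0.08 to 0.068 (*ZEB2*), -0.091 to 0.377 (*AXL*), and -0.267 to 1.434 (*CD44*) with H3K4me3, and from -0.276 to 0.125 (*VIM*), -0.595 to 0.19 (*SNAI1*), -0.049 to 0.412 (*AXL*), and -0.225 to 0.473 (*CD44*) with H3K9Ac. *FN1* Pol II turned to 0.018 on quantile-normalized log2 scores, and *ZEB2* H3K4me3 to 0.075 with lists of equal length and 0.139 when ranked among promoter summits. Promoter summits of the 10 genes numbered 122 to 133 across settings, against 132. With the replicate block, 0 of the genes passed in each mark, and 1, 0, and 2 of all genes passed for Pol II, H3K4me3, and H3K9Ac. Same-numbered libraries did not deviate together over the genes tested (correlations of 0.0137, -0.0092, and -0.00562). Whether same-numbered libraries were prepared together is not given in the labels, and these correlations cannot show it.

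Without 1 library, weaker Pol II ranks were counted at 1 to 2 genes (33.0% to 46.8% of genes tested) and stronger ones at 3 to 5 (22.2% to 35.7%), weaker H3K4me3 ranks at 2 to 5 (36.8% to 51.7%) and stronger at 1 to 3 (19.3% to 29.2%), and weaker H3K9Ac ranks at 3 to 4 (35.0% to 40.2%) and stronger at 1 to 3 (at least 29.2%), so the shares of all genes rose as well. Setting missing summits to the last rank gave 2 weaker for Pol II, ranking among promoter summits gave 1 weaker for H3K4me3, and a 500-bp window gave 0 stronger for H3K4me3. A score of at least 5 gave 1 lost Pol II peak. The ratio of summits in the loci was 1.0 for H3K4me3 and 0.895 for H3K9Ac in gene bodies only, and 0.949 for H3K9Ac within 20 kb. Without 1 library it ran from 0.869 to 1.22 for H3K4me3 and from 0.986 to 1.04 for H3K9Ac. The cause of these shifts was not tested. Over all genes, calls for Pol II went from 0 to 711 without SAP30-KO1 replicate 1, 150 without SAP30-KO1 replicate 2, and 262 with missing summits at the last rank. For H3K4me3 they went from 0 to 130 on quantile-normalized log2 scores and 185 with missing summits at the last rank, and for H3K9Ac from 2 to between 0 and 128. With 2 libraries in a group and unknown depth, small differences cannot be shown.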
